A study of Mus musculus with 12 samples.

Results

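The response of the mouse intestine to a single 10 Gy dose was compared between 2 ways of giving it, using all 12 of the 12 libraries of the series. HH mode has an ultra-high mean and instantaneous dose rate, and LL mode has a low mean and instantaneous dose rate. The 4 groups of 3 libraries were HH_WBI, intestine 48 h after whole-body irradiation (WBI) in HH mode; HH_Ctrl, its untreated controls; LL_WBI, intestine 48 h after the same dose in LL mode; and LL_Ctrl, the untreated controls of that mode. All groups were female C57BL6/J mice bought at 7 to 8 weeks of age and kept for 1 week before use, with no transgene or deletion stated. Irradiated mice were anaesthetised with avertin, and whether the controls were is not given in the sources used here. Expression was deposited as FPKM, fragments scaled to the length of the transcript and to the mapped reads of the library, and was analysed as log2(FPKM + 0.1), so differences of low genes are understated. For each gene the irradiated gap is HH_WBI minus LL_WBI, the control gap is HH_Ctrl minus LL_Ctrl, and the difference of responses, (HH_WBI minus HH_Ctrl) minus (LL_WBI minus LL_Ctrl), equals the irradiated gap minus the control gap. All are on that log2 scale, and errors after ± on them are standard errors from limma.

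A difference between 2 responses has 4 group means behind it, and the same value can come from the irradiated tissue, from the untreated tissue that each response is measured against, or from both. Each gene was therefore placed. The sum of both gaps was tested in the same limma fit. Where it passed and its sign was opposite to that of the difference, the control gap was the larger in size and the gene was placed in the controls. Where its sign was the same, the irradiated gap was the larger and the gene was placed in the irradiated groups. Where the sum did not pass, the gene was not placed, and the share of the difference that the control gap makes up is given as a description. A share over 100% means that the irradiated gap had the same sign as the control gap.

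The intestinal epithelium is renewed from stem cells at the base of the crypts, and ionising radiation stops their division and activates p53, a transcription factor that turns on genes of cell cycle arrest and cell death. Under the epithelium lie resident macrophages that clear dying cells, capillaries, fibroblasts that make collagen, and a network of enteric neurons, and a whole piece of intestine measures all of them together. In such bulk samples fewer cells of a type and less RNA per cell cannot be told apart.

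The libraries held about 18200000 fragments in LL_WBI 3 and 22600000 to 26600000 in the others. These depths were estimated from the value at which the lowest products of FPKM and longest transcript length piled up, taken as 1 fragment. By that estimate 0.5 FPKM of a transcript of median length stood for 29.6 to 43.2 fragments. Of 5470 genes averaging 10 FPKM or more, 19 were listed at 0 in some library. The median SD between libraries of a group on the log2 scale was 0.234 in HH_WBI, 0.166 in HH_Ctrl, 0.357 in LL_WBI and 0.132 in LL_Ctrl. By marker lists of other tissues, some libraries stood apart. Pancreatic genes took all but 91.7% of the FPKM of LL_WBI 1 and all but 69.1% of LL_WBI 2, while the share outside pancreatic genes was at least 99.7% in the other 10 libraries. Fabp6, the bile acid binding protein of the ileum, was at 586 FPKM in HH_WBI 3 and 82.2 FPKM in LL_WBI 3, against at most 8.75 FPKM in any other library. The summed level of duodenum and upper jejunum genes was 3664 FPKM in LL_WBI 2, against 141 to 252 FPKM in the others. The labels do not say that libraries came from separate mice, so p-values measure the spread between libraries. HH mode was given on a compact linear accelerator and LL mode on a clinical one, and each mode had its own controls, so that mode, machine and handling cannot be told apart.

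Of 12921 genes averaging 0.5 FPKM or more, 952 (7.37%) differed in their response between modes at an adjusted p under 0.05, and 3143 had an unadjusted p under 0.05. The response to HH was the higher in 870 of them (6.73% of the genes tested) and the lower in 82 (0.635%). Among the 870 the median difference was 1.12, with a median irradiated gap of 0.03 and a median control gap of -1.14, and 613 (70.5%) were placed in the controls, 3 in the irradiated groups and 254 in neither. By the share of the difference, the control gap made up over 2/3 of it in 749 of the 870, between 1/3 and 2/3 in 105 and less than 1/3 in 16. Among the 82 the median difference was -1.02, with a median irradiated gap of -0.71 and a median control gap of 0.50, and 14 were placed in the irradiated groups, 9 in the controls and 59 in neither. The control gap made up over 2/3 of the difference in 14 of the 82, between 1/3 and 2/3 in 39 and less than 1/3 in 29. Over all genes tested, called or not, the same test placed 19.1% in the controls and 6.85% in the irradiated groups. The irradiated gap by itself passed the threshold upwards in 137 genes (1.06%) and downwards in 147 (1.14%), while the control gap passed it upwards in 487 (3.77%) and downwards in 2669 (20.7%).

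**Figure D1:**
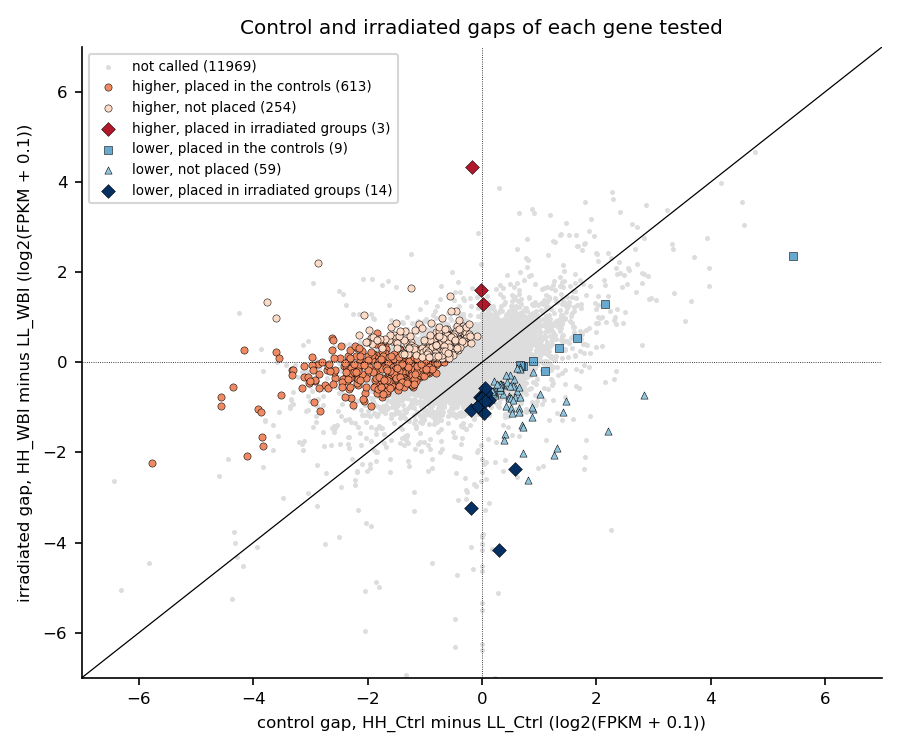
Irradiated gap (vertical axis, HH_WBI minus LL_WBI) against control gap (horizontal axis, HH_Ctrl minus LL_Ctrl) of each of 12921 genes on the log2(FPKM + 0.1) scale, with called genes coloured by where they were placed; 24 genes lie outside the axes. Most of the 870 genes called higher lie left of 0 on the horizontal axis and near 0 on the vertical axis, around the medians of -1.14 and 0.03.

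The groups could also be read library by library. In 715 of the 870 higher genes (82.2%) all 3 HH_Ctrl libraries lay below the other 9, against 17.9% of all genes tested. All 3 LL_Ctrl libraries lay above the other 9 in 161 (18.5%, against 6.33%), and all 3 HH_WBI libraries lay above the other 9 in 41 (4.71%, against 1.92%). All 3 LL_WBI libraries lay below the other 9 in 8 (0.92%, against 1.92%), less often than over all genes. In the 82 lower genes, all 3 HH_WBI libraries lay below the other 9 in 49 (59.8%, against 3.13%), all 3 HH_Ctrl libraries lay above in 22 (26.8%, against 5.49%) and all 3 LL_Ctrl libraries lay below in 14 (17.1%, against 1.91%). These shares describe genes that the difference itself selected, and the LL_WBI group, the most variable of the 4, could least often lie apart.

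**Figure D2:**
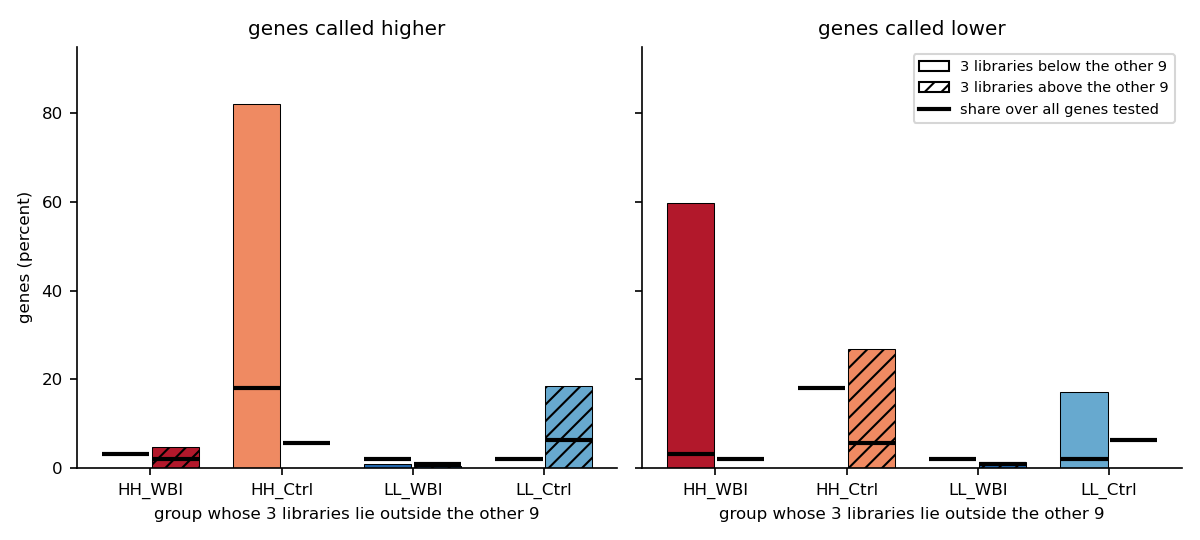
Percent of the 870 genes called higher (left) and of the 82 called lower (right) in which the 3 libraries of a group lie all below (plain bars) or all above (hatched bars) the other 9; black lines give the same percent over the 12921 genes tested. The tallest bars are HH_Ctrl below the others on the left (82.2%) and HH_WBI below the others on the right (59.8%).

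The number of calls changed when single libraries were left out in turn. Each such fit had a library fewer in a group and so less precision. Whether a lost call came from the library or from the lower precision was not tested. Without LL_Ctrl 3, 2552 genes had an unadjusted p under 0.05 by limma, against 3143 with all libraries. The median difference over all genes was then 0.19, against 0.18. Without LL_Ctrl 3 the counts were 65 higher and 4 lower, and without LL_Ctrl 2 they were 107 and 5. They were 322 and 18 without LL_Ctrl 1, and 414 and 24, 336 and 30, and 336 and 14 without HH_Ctrl 1, 2 and 3. Leaving out HH_WBI 1 gave 230 higher and 19 lower, leaving out HH_WBI 2 gave 535 and 34, and leaving out HH_WBI 3 gave 828 and 54. Without LL_WBI 3 there were 1842 higher and 188 lower, and without LL_WBI 2 there were 794 and 341. Without both pancreas-holding libraries, LL_WBI 1 and 2, the counts were 567 and 294, and without both libraries with ileal genes, HH_WBI 3 and LL_WBI 3, they were 2136 and 174. The share of higher calls that was placed in the controls stayed between 39.6% and 87.9% over all these fits and the other alternatives. The balance of directions depended on the scaling. As deposited, the median difference over all genes was 0.18, and 91.4% of the calls were higher; after median-ratio scaling the median was -0.01 with 70.3% higher, after quantile normalisation -0.02 with 61.9%, and after removal of pancreatic genes with rescaling -0.03 with 60.2%. Of the 79 named genes, 11 lost the call under at least 1 of these 3 scalings: Slc26a3, Itgae, Mdm2, Prg2, Dnajb9, Flt1, Col6a5, Col14a1, Hmox1, Mrpl1 and Ercc5. It was lost by 14 with a pseudocount of 1, by 15 with no filter on low values and by 26 without LL_WBI 1 and 2. Of the 79, 19 were called without each library in turn, 15 lost the call only without LL_Ctrl 2 or LL_Ctrl 3, and 45 also lost it without some other library.

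The genes with a higher HH response were poor in guanine and cytosine. Their longest transcripts had a median GC content of 44.1%, against 49.9% over all genes tested, and the genes with a lower HH response had 53.7%. Median transcript lengths were 3850.5 bases in the higher genes, 1651.5 in the lower genes and 3254 over all genes. In 5 bins of equal size by GC content, lowest to highest, 16.7%, 10.1%, 4.61%, 1.59% and 0.736% were called higher. The HH_Ctrl libraries were the ones with the steepest relation of level to GC content, 0.277 to 0.361 log2 units per 10 percentage points, against -0.014 to 0.054 in HH_WBI, -0.161 to -0.103 in LL_WBI and -0.224 to -0.162 in LL_Ctrl. The slope on transcript length differed between the irradiated groups, at 0.017 to 0.142 log2 units per doubling in HH_WBI and -0.1055 to -0.025 in LL_WBI. It was -0.013 to 0.057 in HH_Ctrl and -0.074 to -0.038 in LL_Ctrl. Across 12903 genes, which are not independent and share their libraries, the correlation with GC content was r = 0.08 for the irradiated gap, r = 0.39 for the control gap and r = -0.30 for the difference. After the trends of level on GC content and transcript length were taken out of every library, 198 genes were called higher, 125 of them placed in the controls, and 182 lower, and 231 of the 952 genes were called in both fits. Of 79 called genes named below, 35 lost their call in that fit. With the trend on GC content alone removed, a fit chosen after seeing the data, 36 of the 79 lost it. The parts of GC content and transcript length in the difference were not tested.

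**Figure D3:**
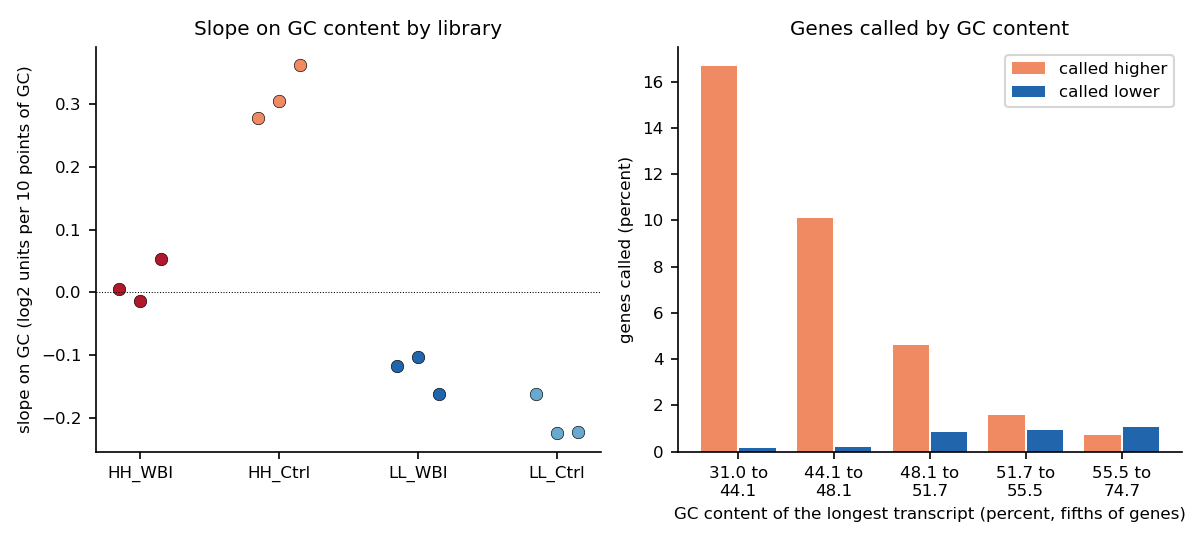
Left, slope of log2 level on GC content in each of the 12 libraries, in log2 units per 10 percentage points of GC; right, percent of genes called higher and lower in 5 bins of equal size by GC content of the longest transcript. Slopes lie at 0.277 to 0.361 in HH_Ctrl and under 0.06 elsewhere, and the percent called higher is 16.7 in the lowest bin and 0.736 in the highest.

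Among the higher genes averaging 4 FPKM or more, the smallest p-values belonged to genes whose HH_Ctrl libraries stood alone below. Alg6, a glucosyltransferase that builds the sugar donor of N-glycans, was at 8.38, 6.67 and 8.02 FPKM in HH_WBI, 2.41, 2.23 and 2.88 in HH_Ctrl, 7.299, 7.09 and 6.95 in LL_WBI, and 7.54, 9.25 and 8.56 in LL_Ctrl. Its 3 HH_Ctrl libraries were the lowest of the 12, and HH_WBI overlapped both LL groups. The difference was 1.82 ± 0.21 (95% interval 1.37 to 2.28, adjusted p = 0.01003), made of an irradiated gap of 0.10 (adjusted p = 0.734) and a control gap of -1.72 (adjusted p = 6.76e-05), and it was placed in the controls. Shoc2, a scaffold of the RAS to ERK pathway, was at 14.5, 14.1 and 14.3 FPKM in HH_WBI, 7.32, 6.84 and 6.41 in HH_Ctrl, 14.2, 12.6 and 15.6 in LL_WBI, and 16.6, 16.8 and 17.7 in LL_Ctrl. HH_Ctrl lay below and LL_Ctrl above all other libraries, and the difference of 1.33 ± 0.17 (adjusted p = 0.01003) was placed in the controls, with an irradiated gap of 0.02. Both calls held without each library and after removal of the GC and length trends, at 1.14 (adjusted p = 0.03698) for Alg6 and 0.64 (adjusted p = 0.0466) for Shoc2.

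HH_Ctrl was also the lowest group for Atg4a, a protease that processes LC3 in autophagy, at 7.22, 6.59 and 7.05 FPKM in HH_WBI, 2.63, 2.88 and 3.099 in HH_Ctrl, 8.23, 7.64 and 8.58 in LL_WBI, and 8.08, 8.26 and 9.43 in LL_Ctrl. Its difference was 1.32 ± 0.18 (adjusted p = 0.01003), with an irradiated gap of -0.23 and a control gap of -1.55. Lpar1, a receptor for lysophosphatidic acid, averaged 14.1 ± 2.57 FPKM in HH_WBI, 6.35 ± 0.675 in HH_Ctrl, 12.2 ± 1.299 in LL_WBI, and 16.6 ± 0.432 in LL_Ctrl (SD, n = 3 each). Its difference was 1.58 ± 0.21 (adjusted p = 0.01003). Cdc40, a factor of the second step of splicing, averaged 8.94 ± 0.71 FPKM in HH_WBI, 4.15 ± 0.244 in HH_Ctrl, 7.39 ± 1.02 in LL_WBI, and 9.22 ± 0.553 in LL_Ctrl, with a difference of 1.41 ± 0.19 (adjusted p = 0.01003). Both were placed in the controls, where the control gap made up 87.2% of the difference of Lpar1 and 80.4% of that of Cdc40. Cmpk1, the kinase that makes CDP and UDP, was at 42.3, 44.1 and 37.9 FPKM in HH_Ctrl, and the other 9 libraries lay between 92.8 and 117 FPKM. Its irradiated gap was 0.00 and its difference 1.35 ± 0.19 (adjusted p = 0.01003); after removal of the GC and length trends the call was lost, at 0.74 (adjusted p = 0.0906). The other calls of this paragraph held under that removal and without each library. With the trend on GC content alone removed, Atg4a lost its call (limma, adjusted p = 0.0644).

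Sprr2a1, a small proline-rich protein of stressed epithelium, differed between modes in both the irradiated and the control intestine. It was at 10.04, 8.001 and 13.1 FPKM in HH_WBI, 2.77, 3.99 and 3.74 in HH_Ctrl, 42.1, 45.8 and 42.2 in LL_WBI, and 64.5, 63.5 and 56.4 in LL_Ctrl. Every HH library was below every LL library. The irradiated gap was -2.08 (adjusted p = 0.00151) and the control gap -4.11 (adjusted p = 7.58e-07), so that the difference of 2.03 ± 0.26 (adjusted p = 0.01003) was placed in the controls. Its response was 1.53 in HH mode (adjusted p = 0.000392) and -0.50 in LL mode (adjusted p = 0.128). The Sprr2a genes are near-identical copies whose fragments may be split between them, and the call was lost after removal of the GC and length trends, at 1.42 (adjusted p = 0.0522).

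**Figure D4:**
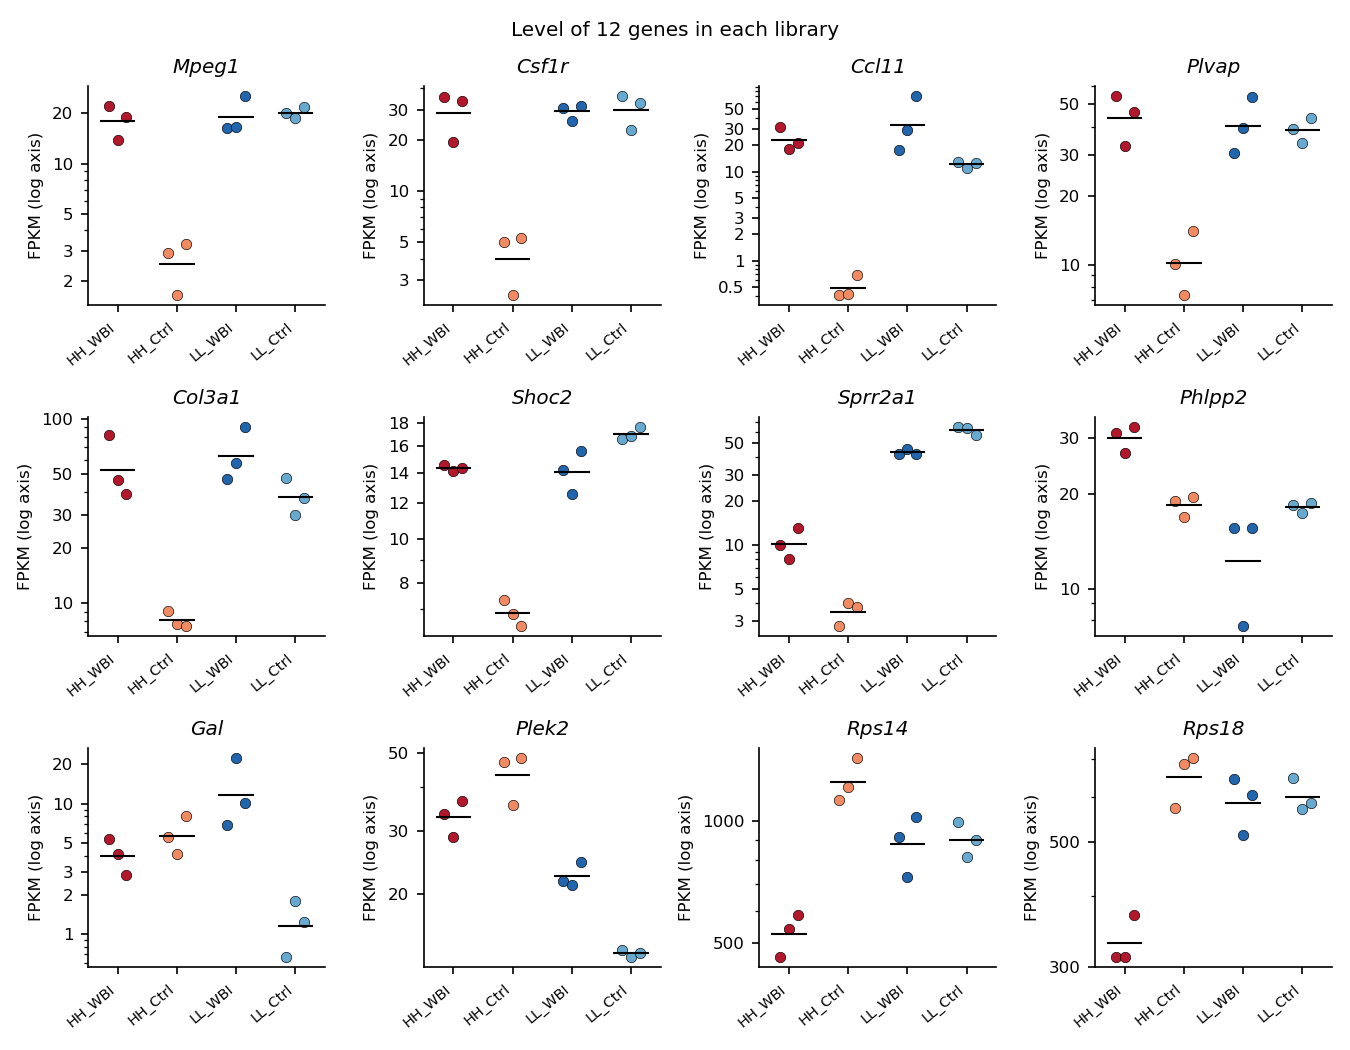
FPKM (log axis) of 12 named genes in each of the 12 libraries, 1 point per library; the line is the group mean on the log2(FPKM + 0.1) scale. HH_Ctrl libraries are the lowest for Mpeg1, Csf1r, Ccl11, Plvap, Col3a1, Shoc2 and Sprr2a1, HH_WBI libraries are the highest for Phlpp2 and the lowest for Rps14 and Rps18, and LL_Ctrl libraries are the lowest for Gal and Plek2.

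Macrophage genes had a higher HH response as a group, and most of those called were placed in the controls. Of 24 macrophage genes tested, 15 had a higher HH response and 0 a lower one, against 6.73% higher over all genes, and 14 of the 15 were placed in the controls and 0 in the irradiated groups. All 24 differences were above 0, as were 63.4% of those of all genes. The median difference of the list was 2.02, with a median irradiated gap of -0.01 and a median control gap of -1.98, and in 21 of the 24 genes the HH_Ctrl libraries were the lowest of all. The summed level of the list was 639 to 692 FPKM in HH_WBI, 224 to 333 FPKM in HH_Ctrl, 503 to 937 FPKM in LL_WBI and 519 to 613 FPKM in LL_Ctrl. The macrophage calls numbered 5 without LL_Ctrl 3, 6 without LL_Ctrl 2, 9 without LL_Ctrl 1, 6 without HH_WBI 1, 21 without LL_WBI 3 and 5 without LL_WBI 1 and 2. They numbered 12 after removal of the GC and length trends.

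Mpeg1, the pore-forming perforin-2 of macrophages, was at 22.1, 13.9 and 18.98 FPKM in HH_WBI, 2.92, 1.63 and 3.31 in HH_Ctrl, 16.4, 16.6 and 25.4 in LL_WBI, and 20.1, 18.8 and 21.7 in LL_Ctrl. The 3 HH_Ctrl libraries lay below all others, which overlapped. Its difference was 2.88 ± 0.37 (95% interval 2.06 to 3.69, adjusted p = 0.01003), with an irradiated gap of -0.08 (adjusted p = 0.895) and a control gap of -2.96 (adjusted p = 7.18e-05). Csf1r, the receptor through which macrophages receive their survival signal, was at 35.7, 19.2 and 33.8 FPKM in HH_WBI, 5.01, 2.43 and 5.25 in HH_Ctrl, 30.8, 25.7 and 31.6 in LL_WBI, and 36.1, 22.8 and 32.6 in LL_Ctrl. It had the same arrangement of groups, with a difference of 2.83 ± 0.44 (adjusted p = 0.0106) and an irradiated gap of -0.04. Ms4a6c, a membrane protein of monocytes and macrophages that has close paralogs, averaged 4.72 ± 0.883 FPKM in HH_WBI, 0.408 ± 0.1304 in HH_Ctrl, 5.62 ± 2.71 in LL_WBI, and 4.94 ± 0.862 in LL_Ctrl (SD, n = 3 each). Its difference was 3.16 ± 0.43 (adjusted p = 0.01003). Cx3cr1, the fractalkine receptor, was at 5.54, 2.99 and 4.76 FPKM in HH_WBI, 0.432, 0.18 and 0.55 in HH_Ctrl, 2.41, 3.14 and 3.35 in LL_WBI, and 2.25, 2.67 and 3.396 in LL_Ctrl. HH_Ctrl was again the lowest group, and the difference was 3.16 ± 0.46 (adjusted p = 0.01003). All 4 were placed in the controls, and all 4 calls held without each library and after removal of the GC and length trends. The response of Mpeg1 was 2.79 in HH mode and -0.08 in LL mode, and that of Csf1r 2.801 in HH mode and -0.03 in LL mode.

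The other called macrophage genes were Ms4a6b, Ms4a6d, Adgre1 (F4/80), the scavenger receptor Cd68, the complement C1q chains C1qb and C1qc, the mannose receptor Mrc1, the Fc receptor Fcgr1, Aif1, Cybb of the NADPH oxidase and the fungal sugar receptor Clec7a, with differences of 1.41 for Aif1 to 2.79 for Ms4a6d. Fcgr1 among them was not placed. The 9 members that did not pass included C1qa at 1.47 ± 0.42 (adjusted p = 0.0578) and Ms4a7 at 2.06 ± 0.60 (adjusted p = 0.0583). Others were Lyz2, lysozyme, at 1.12 ± 0.60 (adjusted p = 0.281), and Ctss, cathepsin S, at 0.63 ± 0.31 (adjusted p = 0.242). Lyz2 and Ctss are also expressed outside macrophages.

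**Figure D5:**
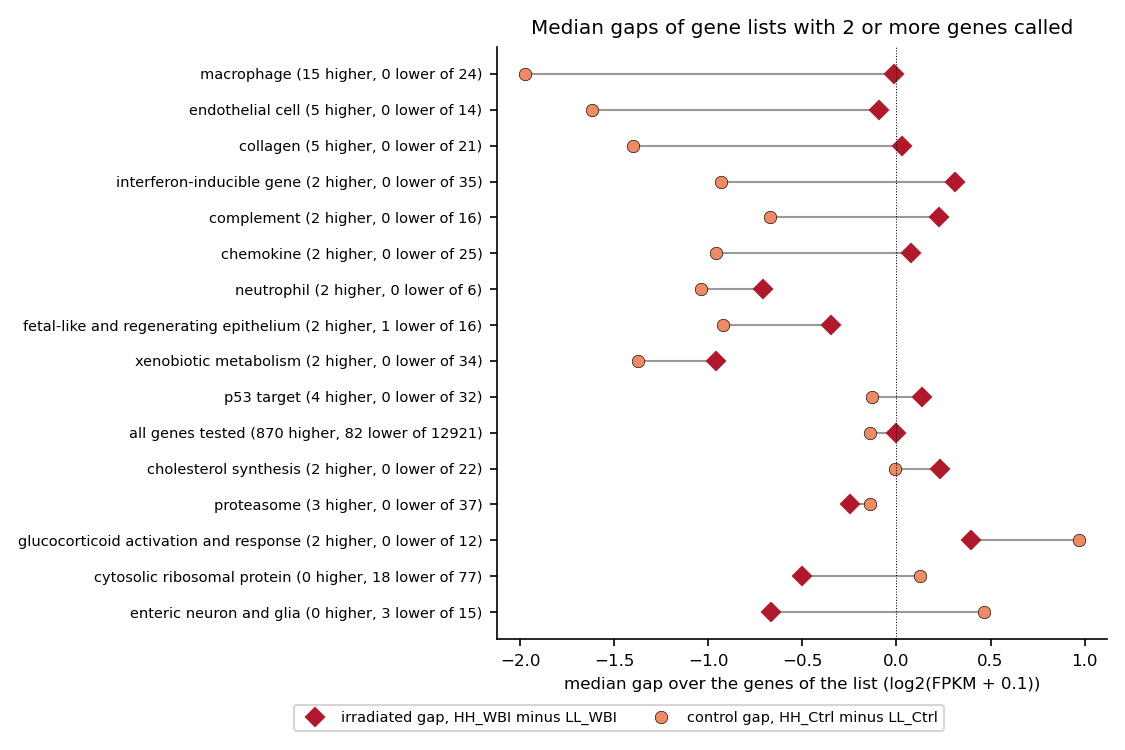
Median irradiated gap (diamonds) and median control gap (circles) on the log2(FPKM + 0.1) scale over the members of each gene list with 2 or more called genes, and over all genes tested. For macrophage genes the medians are -0.01 and -1.98, and for cytosolic ribosomal protein genes -0.50 and 0.13.

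Other myeloid and inflammatory genes with a higher HH response were also at their lowest in HH_Ctrl. Ccl11, eotaxin, the chemokine that draws eosinophils into the gut, was at 31.9, 17.7 and 20.8 FPKM in HH_WBI, 0.405, 0.417 and 0.696 in HH_Ctrl, 17.3, 29.6 and 70.7 in LL_WBI, and 12.7, 10.95 and 12.4 in LL_Ctrl. HH_Ctrl was below all other libraries, and both irradiated groups were above both control groups. The difference was 3.81 ± 0.58 (95% interval 2.54 to 5.08, adjusted p = 0.0106), with an irradiated gap of -0.54 and a control gap of -4.35, and it was placed in the controls. The HH response was 5.27 (adjusted p = 0.000112) and the LL response 1.46 (adjusted p = 0.0691). Cxcl12, a stromal chemokine, averaged 20.8 ± 3.17 FPKM in HH_WBI, 3.75 ± 1.36 in HH_Ctrl, 14.04 ± 5.06 in LL_WBI, and 9.92 ± 0.282 in LL_Ctrl (SD, n = 3 each). Its difference was 2.06 ± 0.40 (adjusted p = 0.0181). It was not placed, and the call was lost without HH_WBI 1, LL_Ctrl 2 or LL_Ctrl 3 (adjusted p up to 0.0589). Of 25 chemokine genes 2 were called higher and 0 lower, close to the 6.73% called higher over all genes, with a median difference of 0.91, which was -0.14 without LL_WBI 1 and 2.

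C6, a component of the membrane attack complex, was at 5.69, 3.05 and 4.17 FPKM in HH_WBI, 0.666, 0.418 and 0.478 in HH_Ctrl, 1.99, 2.595 and 3.498 in LL_WBI, and 1.97, 1.897 and 2.38 in LL_Ctrl. HH_Ctrl lay below all other libraries, and the difference of 2.47 ± 0.38 (adjusted p = 0.0109) was placed in the controls and held without each library. C3ar1, the receptor for the complement fragment C3a, had 0.241, 0.227 and 0.443 FPKM in HH_Ctrl and between 1.53 and 3.63 FPKM elsewhere, with a difference of 2.36 ± 0.39 (adjusted p = 0.0123). It was placed in the controls, with an irradiated gap of -0.00, and the call was lost without LL_Ctrl 3, at 2.298 (adjusted p = 0.0528). These were the 2 higher calls among 16 complement genes, of which 0 were lower, against 6.73% called higher over all genes.

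Of 6 neutrophil genes 2 were called higher and 0 lower, against 6.73% higher over all genes. The median difference of the neutrophil list was 0.82, and -0.03 without LL_WBI 1 and 2. Retnlg, a resistin-like protein of neutrophils, was at 1.603, 0.708 and 0.458 FPKM in HH_WBI, 0.067, 0 and 0 in HH_Ctrl, 2.03, 1.49 and 1.58 in LL_WBI, and 2.99, 1.98 and 3.38 in LL_Ctrl. In HH_Ctrl 2 libraries were listed at 0. Its difference of 3.61 ± 0.57 (adjusted p = 0.011) depends on the pseudocount because of those libraries, and it was placed in the controls and held without each library. Mmp9, a gelatinase that neutrophils and macrophages release, was at 10.1, 4.44 and 6.19 FPKM in HH_WBI, 0.703, 0.852 and 0.851 in HH_Ctrl, 8.62, 6.19 and 23.4 in LL_WBI, and 10.9, 10.5 and 9.35 in LL_Ctrl. HH_Ctrl was far below the other groups, and the difference was 2.803 ± 0.58 (adjusted p = 0.0206), placed in the controls. That call was lost without HH_WBI 1 or any LL_Ctrl library (adjusted p up to 0.0611). Prg2, major basic protein of eosinophils, averaged 1.15 ± 0.0996 FPKM in HH_WBI, 0.518 ± 0.0672 in HH_Ctrl, 2.103 ± 0.465 in LL_WBI, and 2.93 ± 0.286 in LL_Ctrl (SD, n = 3 each). It was the called gene of 4 in the eosinophil and mast cell list, with a difference of 1.49 ± 0.30 (adjusted p = 0.0197), placed in the controls and lost without LL_Ctrl 2 or LL_Ctrl 3 (adjusted p up to 0.0669).

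The plasma cell, T cell and MHC class II lists held 1 higher call each, of 9, 19 and 10 genes, near the 6.73% called higher over all genes. Jchain, which joins the chains of secreted IgA, was at 246, 239 and 359 FPKM in HH_WBI, 129, 98.3 and 165 in HH_Ctrl, 384, 285 and 399.5 in LL_WBI, and 419.8, 496 and 674 in LL_Ctrl. HH_Ctrl was the lowest and LL_Ctrl the highest group, and the difference of 1.67 ± 0.35 (adjusted p = 0.0212) was placed in the controls. Itgae, CD103 of intraepithelial lymphocytes, had the LL_Ctrl group apart from the rest, at 2.696, 3.82 and 2.73 FPKM in HH_WBI, 2.98, 3.03 and 3.37 in HH_Ctrl, 4.005, 4.09 and 3.25 in LL_WBI, and 8.08, 8.17 and 8.52 in LL_Ctrl. Its HH response was -0.04 (adjusted p = 0.892) and its LL response -1.11 (adjusted p = 0.00641), and the difference of 1.08 ± 0.23 (adjusted p = 0.0228) was placed in the controls. Itgax, CD11c of dendritic cells and gut macrophages, was called in the MHC class II list, at 1.81 ± 0.39 (adjusted p = 0.0227), also placed in the controls. Jchain lost its call without HH_Ctrl 2, LL_Ctrl 2 or LL_Ctrl 3. Itgae lost it without HH_Ctrl 1, HH_Ctrl 2 or any LL_Ctrl library and under all 3 other scalings, and Itgax without HH_WBI 1 or any LL_Ctrl library. The highest adjusted p without a single library was 0.0714. Removal of the GC and length trends ended those of Jchain, at 1.298 (adjusted p = 0.0904), and Itgae, at 0.88 (adjusted p = 0.108). Of 10 B cell genes 0 were called and 0 had an unadjusted p under 0.05, with 9 differences below 0 and a median of -1.29. The summed level of the B cell list was 14.6 to 19.8 FPKM in HH_WBI, 102, 8.37 and 104 FPKM in HH_Ctrl, 8.56 to 12.9 FPKM in LL_WBI and 15.4 to 23.5 FPKM in LL_Ctrl, so HH_Ctrl 1 and 3 stood apart. The median difference of the B cell list was 0.10 without HH_Ctrl 1, when 7 of the genes passed the filter on low values, and without HH_Ctrl 2 it was -2.54 with 3 lower calls.

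Of 35 interferon-inducible genes tested, 2 were called higher and 0 lower, near the 6.73% called higher over all genes. Differences were above 0 in 30 of them (85.7%, against 63.4% over all genes), and the median difference was 1.18. An unadjusted p under 0.05 was reached by 14, all higher, against 2561 of the 12921 genes in that direction. The called genes, Ifi204 and Ifi207, belong to the p200 family of DNA sensors, whose members share sequence. Ifi204 was at 3.33, 2.74 and 2.27 FPKM in HH_WBI, 0.191, 0.098 and 0.313 in HH_Ctrl, 1.77, 2.05 and 5.86 in LL_WBI, and 1.71, 1.12 and 1.49 in LL_Ctrl, with HH_Ctrl below all other libraries. Its difference was 2.38 ± 0.59 (adjusted p = 0.0353), and that of Ifi207 was 2.47 ± 0.59 (adjusted p = 0.0311), and both were placed in the controls. Both calls were lost without HH_WBI 1, HH_WBI 2, HH_Ctrl 2, LL_WBI 1, LL_WBI 2 or any LL_Ctrl library, that of Ifi204 also without HH_Ctrl 1, with adjusted p up to 0.08904, and both were lost after removal of the GC and length trends, at 1.96 (adjusted p = 0.0783) and 1.82 (adjusted p = 0.0965). The list of interferon-inducible genes had 20 higher calls without LL_WBI 3 and a median difference of -0.04 without LL_WBI 1 and 2.

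Endothelial genes followed the macrophage genes in direction and place. Of 14 tested, 5 had a higher HH response and 0 a lower one, against 6.73% higher over all genes. All 14 differences were above 0, against 63.4% over all genes. An unadjusted p under 0.05 was reached by 11, all higher, against 2561 of the 12921 genes in that direction. All 5 called genes were placed in the controls. The median difference was 1.55, with a median irradiated gap of -0.09 and a median control gap of -1.62, and the HH_Ctrl libraries were the lowest in 13 of the 14. The summed level was 81.2 to 135 FPKM in HH_WBI, 24.8 to 39.0 FPKM in HH_Ctrl, 79.8 to 157 FPKM in LL_WBI and 89.2 to 107 FPKM in LL_Ctrl. The endothelial cell calls numbered 1 without LL_Ctrl 3, 2 without LL_Ctrl 2 or HH_WBI 1, 3 without LL_Ctrl 1, HH_Ctrl 1 or HH_Ctrl 2, 13 without LL_WBI 3 and 1 without LL_WBI 1 and 2.

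Plvap, the protein of the diaphragms of fenestrated capillaries, was at 54.4, 32.9 and 46.2 FPKM in HH_WBI, 10.1, 7.33 and 13.96 in HH_Ctrl, 30.7, 39.4 and 53.8 in LL_WBI, and 38.8, 33.7 and 43.7 in LL_Ctrl. HH_Ctrl was below all other libraries and the other groups overlapped, with a difference of 2.03 ± 0.38 (adjusted p = 0.0173) and an irradiated gap of 0.11. Tek, the angiopoietin receptor, averaged 1.75 ± 0.337 FPKM in HH_WBI, 0.252 ± 0.0775 in HH_Ctrl, 2.25 ± 0.496 in LL_WBI, and 1.96 ± 0.09098 in LL_Ctrl (SD, n = 3 each). Its difference of 2.24 ± 0.36 (adjusted p = 0.011) held without each library and after removal of the GC and length trends. Kdr, the main receptor for VEGF, was at 5.73, 2.998 and 5.96 FPKM in HH_WBI, 0.687, 0.583 and 0.965 in HH_Ctrl, 3.47, 5.27 and 6.72 in LL_WBI, and 3.18, 4.56 and 5.49 in LL_Ctrl. Its difference was 2.32 ± 0.46 (adjusted p = 0.0185), and that of Flt1, the other VEGF receptor on these cells, was 1.96 ± 0.46 (adjusted p = 0.0295). The call of Plvap was lost without LL_Ctrl 3, at 1.94 (adjusted p = 0.0589). Kdr lost its call without HH_WBI 1, LL_Ctrl 2 or LL_Ctrl 3 (adjusted p up to 0.0626). Flt1 lost it without HH_WBI 1, HH_Ctrl 1, HH_Ctrl 2 or any LL_Ctrl library (adjusted p up to 0.0848) and after removal of the GC and length trends, at 1.74 (adjusted p = 0.0582). Cdh5, VE-cadherin, was also called, at 1.67 ± 0.45 (adjusted p = 0.0458), but not in 11 of the 12 fits without a single library (up to 0.109) nor after removal of the GC and length trends, at 1.5 (adjusted p = 0.068). Pecam1, CD31, was at 1.304 ± 0.38 (adjusted p = 0.0585) and did not pass.

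Collagen genes had 5 higher and 0 lower calls of 21 tested, against 6.73% higher over all genes. All 21 differences were above 0, against 63.4% over all genes, and an unadjusted p under 0.05 in the higher direction was reached by 18, against 2561 of the 12921 genes. The median difference was 1.35, with a median irradiated gap of 0.03 and a median control gap of -1.40. Their summed level was 241 to 449 FPKM in HH_WBI, 62.9 to 74.5 FPKM in HH_Ctrl, 211 to 488 FPKM in LL_WBI and 146 to 220 FPKM in LL_Ctrl, so that HH_WBI lay above HH_Ctrl in the sum while LL_WBI and LL_Ctrl overlapped. Col3a1, a fibril collagen of the gut wall, was at 81.6, 46.4 and 38.9 FPKM in HH_WBI, 9.07, 7.74 and 7.49 in HH_Ctrl, 46.97, 57.9 and 90.4 in LL_WBI, and 47.9, 29.98 and 37.3 in LL_Ctrl. The difference was 1.96 ± 0.42 (adjusted p = 0.0212), placed in the controls, with an HH response of 2.69 (adjusted p = 0.000243) and an LL response of 0.73 (adjusted p = 0.1596). Col15a1 of the basement membrane zone (1.74 ± 0.39, adjusted p = 0.0261) and Col14a1 (1.998 ± 0.55, adjusted p = 0.0498) were also placed in the controls, and Col6a5 (2.29 ± 0.57, adjusted p = 0.03597) and Col6a2 (1.802 ± 0.50, adjusted p = 0.0499) were not placed. The collagen list had 0 calls without HH_Ctrl 2, HH_Ctrl 3, LL_Ctrl 1, LL_Ctrl 2 or LL_Ctrl 3. It had 1 without HH_WBI 1, 2 without HH_WBI 3, HH_Ctrl 1 or LL_WBI 1, 3 without LL_WBI 2, where 1 other collagen gene was lower, 17 without LL_WBI 3, and 0 without LL_WBI 1 and 2. After removal of the GC and length trends 2 were left, Col3a1 and Col15a1, with Col3a1 at 1.81 (adjusted p = 0.0279). Col1a1 and Col1a2 of type I collagen did not pass, at 1.31 ± 0.43 (adjusted p = 0.0885) and 1.303 ± 0.41 (adjusted p = 0.0775).

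Gcg, the precursor of glucagon-like peptides of enteroendocrine L cells, was at 37.1, 33.3 and 53.04 FPKM in HH_WBI, 7.06, 5.05 and 8.58 in HH_Ctrl, 25.4, 15.98 and 51.9 in LL_WBI, and 24.1, 28.3 and 26.7 in LL_Ctrl. HH_Ctrl was below all other libraries, and the difference was 2.49 ± 0.50 (adjusted p = 0.0194). It was not placed, with an irradiated gap of 0.54 and a control gap of -1.95 that made up 78.2% of it, and it was the called gene of 17 enteroendocrine genes, near the 6.73% called higher over all genes. Il33, an alarmin of stromal and stressed epithelial cells, was at 32.7, 18.4 and 14.8 FPKM in HH_WBI, 2.29, 2.13 and 2.94 in HH_Ctrl, 17.3, 17.3 and 35.9 in LL_WBI, and 15.5, 13.1 and 10.9 in LL_Ctrl. Its difference of 2.28 ± 0.46 (adjusted p = 0.0196) was placed in the controls. Both calls were lost without LL_Ctrl 2 or LL_Ctrl 3 (adjusted p up to 0.0611 for Gcg and 0.0589 for Il33).

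Hsd11b1, the enzyme that turns inactive into active glucocorticoid, was at 19.2, 12.5 and 14.7 FPKM in HH_WBI, 1.16, 0.845 and 1.37 in HH_Ctrl, 7.44, 9.56 and 17.4 in LL_WBI, and 4.23, 3.08 and 4.298 in LL_Ctrl. HH_Ctrl was the lowest group, LL_Ctrl lay above it, and both irradiated groups lay above both controls. The HH response was 3.67 (adjusted p = 0.000112), the LL response 1.47 (adjusted p = 0.0306) and the difference 2.203 ± 0.42 (adjusted p = 0.0175), which was not placed and was lost without LL_Ctrl 3, at 2.12 (adjusted p = 0.0589). Nr3c1, the glucocorticoid receptor, averaged 18.3 ± 2.16 FPKM in HH_WBI, 10.9 ± 1.12 in HH_Ctrl, 16.8 ± 4.24 in LL_WBI, and 24.8 ± 1.503 in LL_Ctrl (SD, n = 3 each). Its difference was 1.33 ± 0.25 (adjusted p = 0.0175) and was placed in the controls. It was lost without LL_Ctrl 2 or LL_Ctrl 3 (adjusted p up to 0.0589) and after removal of the GC and length trends, at 0.66 (adjusted p = 0.0582). These 2 were the higher calls among 12 genes of glucocorticoid activation and response, against 6.73% over all genes. The median difference of the list was -0.27, but 0.11 with no filter on low values and 0.10 with a filter at a mean of 5 FPKM. Of the 12, 6 had a higher control gap and 3 a lower one, against 3.77% and 20.7% over all genes.

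Among epithelial genes the calls were scattered. Ugt2b34, a glucuronosyltransferase that conjugates steroids and drugs, was at 164, 123 and 122 FPKM in HH_WBI, 68.7, 68.3 and 66.4 in HH_Ctrl, 232, 188 and 160.4 in LL_WBI, and 257, 314 and 348 in LL_Ctrl. HH_Ctrl lay below and LL_Ctrl above all other libraries, and the difference of 1.66 ± 0.25 (adjusted p = 0.01003), placed in the controls, held without each library but not after removal of the GC and length trends, at 1.02 (adjusted p = 0.0799). Sult1b1, a sulfotransferase of thyroid hormones and phenols, averaged 277 ± 32.6 FPKM in HH_WBI, 179 ± 20.4 in HH_Ctrl, 295 ± 46.2 in LL_WBI, and 443 ± 25.3 in LL_Ctrl (SD, n = 3 each). Its difference was 1.23 ± 0.23 (adjusted p = 0.01699), placed in the controls. These were the 2 calls among 34 genes of xenobiotic metabolism, near the 6.73% called higher over all genes. Of the 34, 19 had a lower control gap and 4 a lower irradiated gap, against 20.7% and 1.14% over all genes. Slc26a3, the chloride and bicarbonate exchanger of colon and villus, was at 1.26 ± 0.24 (adjusted p = 0.01796), placed in the controls. Both Sult1b1 and Slc26a3 lost the call without LL_Ctrl 2 or LL_Ctrl 3 (adjusted p up to 0.0589 and 0.0601) and after removal of the GC and length trends, at 0.81 (adjusted p = 0.0527) and 0.65 (adjusted p = 0.285). Slc26a3 also lost it under all 3 other scalings.

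Fyb, an adaptor of T cells and myeloid cells that is also in the tuft cell list, was at 2.04 ± 0.40 (adjusted p = 0.0181) and was not placed; it lost the call without LL_Ctrl 2 or LL_Ctrl 3 (adjusted p up to 0.0589). Mptx2, a pentraxin of Paneth cells with a close paralog, was at 434, 83.1 and 455 FPKM in HH_WBI, 9.09, 10.8 and 17.2 in HH_Ctrl, 50.8, 32.6 and 599 in LL_WBI, and 276, 139.9 and 114 in LL_Ctrl. The spread within groups was wide, and the difference of 5.12 ± 1.34 (95% interval 2.19 to 8.04, adjusted p = 0.0414) was not placed. The call was lost without HH_WBI 1, HH_WBI 3, any HH_Ctrl library, LL_WBI 1, LL_WBI 2 or any LL_Ctrl library (adjusted p up to 0.103) and after removal of the GC and length trends, at 4.62 (adjusted p = 0.0858).

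Of 37 proteasome genes 3 were called higher and 0 lower, near the 6.73% called higher over all genes, with a median difference of -0.12. Psmd1, the largest scaffold subunit of the 26S proteasome, was at 25.9, 24.97 and 23.5 FPKM in HH_WBI, 11.5, 12.3 and 12.2 in HH_Ctrl, 32.97, 23.7 and 29.4 in LL_WBI, and 25.5, 31.97 and 28.1 in LL_Ctrl. The HH_Ctrl libraries were the lowest of all, and the difference was 1.04 ± 0.20 (adjusted p = 0.0175). Psmd14, its deubiquitinase, was at 1.05 ± 0.22 (adjusted p = 0.0206) and Psmc6, an ATPase of its base, at 0.98 ± 0.25 (adjusted p = 0.0405). Of the 3 proteasome calls 0 were left without LL_Ctrl 2 or LL_Ctrl 3. After removal of pancreatic genes with rescaling the proteasome list had 3 higher and 8 lower calls. The other losses were Psmd14 without HH_WBI 1 or HH_Ctrl 1, and Psmc6 without HH_WBI 1, HH_WBI 2, any HH_Ctrl library, LL_WBI 1 or LL_Ctrl 1 (adjusted p up to 0.108).

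Dnajb9, a chaperone induced by endoplasmic reticulum stress, averaged 17.8 ± 2.31 FPKM in HH_WBI, 8.91 ± 0.343 in HH_Ctrl, 30.7 ± 5.98 in LL_WBI, and 30.2 ± 2.63 in LL_Ctrl (SD, n = 3 each). Dnaja1, a cytosolic partner of HSP70, averaged 62.8 ± 5.82 FPKM in HH_WBI, 31.1 ± 2.22 in HH_Ctrl, 97.7 ± 24.8 in LL_WBI, and 102 ± 12.7 in LL_Ctrl. Both were lower in HH than in LL libraries in either state. The irradiated gap was -0.77 and the control gap -1.75 for Dnajb9, with a difference of 0.98 ± 0.22 (adjusted p = 0.0246). The difference of Dnaja1 was 1.103 ± 0.25 (adjusted p = 0.0262), and both were placed in the controls. Mrpl1 of the mitochondrial ribosome was at 1.03 ± 0.27 (adjusted p = 0.0402), placed in the controls. It was the 1 call among 77 mitochondrial ribosomal protein genes, against 6.73% called higher over all genes. Differences were below 0 in 64 of the 77 (83.1%, against 36.6% over all genes), with a median of -0.30. Idi1 of cholesterol synthesis was at 0.98 ± 0.27 (adjusted p = 0.04901), also placed in the controls. Sc5d of the same pathway was at 1.002 ± 0.22 (adjusted p = 0.0245) and Hmox1, the haem oxygenase of the NRF2 list, at 1.41 ± 0.36 (adjusted p = 0.0395), both not placed. Each of these 6 calls was lost without 6 to 10 of the 12 libraries, LL_Ctrl 2, LL_Ctrl 3, HH_Ctrl 2, HH_Ctrl 3 and HH_WBI 1 among them in every case, with adjusted p up to 0.116. Those of Dnajb9, Dnaja1, Mrpl1, Idi1 and Sc5d were lost after removal of the GC and length trends, in that order at 0.50 (adjusted p = 0.236), 0.43 (adjusted p = 0.211), 0.35 (adjusted p = 0.436), 0.36 (adjusted p = 0.249) and 0.33 (adjusted p = 0.359).

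Of 32 p53 targets tested, 4 were called higher and 0 lower, against 6.73% higher over all genes. Differences were above 0 in 27 of them (84.4%, against 63.4% over all genes). An unadjusted p under 0.05 was reached by 7, all higher, against 2561 of the 12921 genes in that direction, so this count was near the background. The median difference of the p53 target list was 0.31, and -0.01 without LL_WBI 1 and 2. Mdm2, the ubiquitin ligase that feeds back on p53, was at 25.03, 23.3 and 17.9 FPKM in HH_WBI, 7.701, 6.13 and 7.85 in HH_Ctrl, 16.9, 20.8 and 22.4 in LL_WBI, and 15.6, 14.3 and 14.4 in LL_Ctrl. HH_Ctrl was below all other libraries while the irradiated groups overlapped, and the difference of 1.16 ± 0.23 (adjusted p = 0.0194) was placed in the controls, with an irradiated gap of 0.14 and a control gap of -1.03. Apaf1, the core of the apoptosome, averaged 17.8 ± 0.955 FPKM in HH_WBI, 8.68 ± 0.791 in HH_Ctrl, 12.3 ± 3.88 in LL_WBI, and 14.9 ± 1.08 in LL_Ctrl (SD, n = 3 each). Its difference was 1.35 ± 0.29 (adjusted p = 0.0212), with a control share of 57.5%. Ckap2, at 1.21 ± 0.27 (adjusted p = 0.0237), and the repair endonuclease Ercc5, at 1.18 ± 0.32 (adjusted p = 0.0486), were, like Apaf1, not placed. The call of Apaf1 was lost without HH_WBI 1, HH_Ctrl 1, HH_Ctrl 2 or any LL_Ctrl library (adjusted p up to 0.0623), that of Ckap2 without 7 single libraries (up to 0.0715) and that of Ercc5 without 8 (up to 0.114).

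The call of Mdm2 was lost without HH_WBI 1, LL_Ctrl 2 or LL_Ctrl 3 (adjusted p up to 0.0611) and after removal of the GC and length trends, at 0.68 (adjusted p = 0.133). After that removal 0 of the p53 target genes were called, and 0 were called without HH_WBI 1, LL_Ctrl 2 or LL_Ctrl 3. The other p53 targets followed here did not pass, which does not show that they responded alike. Psrc1, a spindle protein and p53 target, was at 16.6, 15.2 and 13.97 FPKM in HH_WBI, 1.703, 1.44 and 1.42 in HH_Ctrl, 8.93, 10.5 and 11.9 in LL_WBI, and 2.17, 1.49 and 1.44 in LL_Ctrl. It rose in both modes, by 3.24 (adjusted p = 9.87e-06) in HH and 2.56 (adjusted p = 0.000138) in LL, with a difference of 0.68 (95% interval 0.12 to 1.24, adjusted p = 0.127). Phlda3, an inhibitor of AKT, rose by 3.71 (adjusted p = 0.000114) in HH and 3.08 (adjusted p = 0.000632) in LL, with a difference of 0.63 (95% interval -0.34 to 1.61, adjusted p = 0.434). The stress hormone gene Gdf15 had a difference of 0.18 (95% interval -0.71 to 1.07), the death receptor gene Eda2r 0.83 (-0.18 to 1.83) and Cdkn1a, which encodes the cell cycle inhibitor p21, -0.28 (-0.83 to 0.27), with adjusted p of 0.845, 0.302 and 0.551.

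The genes with a higher HH response that were placed in the irradiated groups numbered 3, Igkv4-74, Phlpp2 and Zfr2. That count changed with the libraries used: it was 102 without LL_WBI 3, 134 without LL_WBI 3 and HH_WBI 3, and 20 without LL_WBI 1. It was 0 without LL_Ctrl 2 or LL_Ctrl 3, 12 after median-ratio scaling and 19 after quantile normalisation. Phlpp2, a phosphatase that turns off AKT, was at 31.1, 26.9 and 32.5 FPKM in HH_WBI, 18.9, 16.9 and 19.6 in HH_Ctrl, 15.6, 7.62 and 15.6 in LL_WBI, and 18.4, 17.4 and 18.7 in LL_Ctrl. HH_WBI lay above and LL_WBI below all other libraries, while both control groups overlapped, with an irradiated gap of 1.28 (adjusted p = 0.0255), a control gap of 0.02 (adjusted p = 0.961) and a difference of 1.26 ± 0.33 (adjusted p = 0.0399). LL_WBI 2, one of the libraries with pancreatic transcripts, was the lowest of the 12. The call was lost without any HH_WBI library, any HH_Ctrl library or any LL_Ctrl library, with differences from 0.92 to 1.44 over all 12 libraries left out (adjusted p up to 0.1001), and after removal of the GC and length trends, at 0.93 (adjusted p = 0.115).

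Igkv4-74, a variable segment of immunoglobulin light chains, was at 9.195, 48.6 and 8.03 FPKM in HH_WBI, 1.64, 2.29 and 3.94 in HH_Ctrl, 0.584, 1.41 and 0.334 in LL_WBI, and 1.71, 3.201 and 3.92 in LL_Ctrl. HH_WBI was above and LL_WBI below all other libraries, and HH_WBI 2 stood above the rest of its group. The difference was 4.51 ± 0.93 (95% interval 2.47 to 6.54, adjusted p = 0.0206) with an irradiated gap of 4.33 and a control gap of -0.17. Variable segments share sequence, and the call was lost without LL_Ctrl 2 or LL_Ctrl 3 (adjusted p up to 0.06401) and after removal of the GC and length trends, at 3.65 (adjusted p = 0.0928). Zfr2, a zinc finger RNA binding protein under the 4 FPKM asked of named genes and chosen after its values were seen, was at 0.993, 1.38 and 1.196 FPKM in HH_WBI, 0.987, 0.796 and 1.33 in HH_Ctrl, 0.322, 0.226 and 0.443 in LL_WBI, and 1.03, 0.82 and 1.305 in LL_Ctrl. LL_WBI was the lowest group and the other 3 overlapped, with a difference of 1.63 ± 0.42 (adjusted p = 0.0388). The call was lost in 10 of the 12 fits without a single library (adjusted p up to 0.112) and after removal of the GC and length trends, at 1.54 (adjusted p = 0.0544).

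The genes with a lower HH response that were placed in the controls numbered 9: Plek2, Lgals3, Srm, Pkdcc, Pdlim1, Mt2, Rab3a, Lrfn4 and Cry2. Plek2, a pleckstrin of the actin cytoskeleton, was at 33.6, 28.8 and 36.4 FPKM in HH_WBI, 46.9, 35.5 and 48.3 in HH_Ctrl, 21.8, 21.2 and 24.6 in LL_WBI, and 13.9, 13.2 and 13.6 in LL_Ctrl. LL_Ctrl lay below all other libraries, and both HH groups lay above both LL groups. The irradiated gap was 0.54 (adjusted p = 0.0631), the control gap 1.66 (adjusted p = 6.76e-05) and the difference -1.12 ± 0.20 (adjusted p = 0.0164), which was lost without LL_Ctrl 2, at -1.099 (adjusted p = 0.0529), or LL_Ctrl 3, at -1.12 (adjusted p = 0.0589). Lgals3, galectin-3 of villus enterocytes and macrophages, was at 372, 423 and 467 FPKM in HH_WBI, 700.5, 584 and 760.1 in HH_Ctrl, 371, 312 and 330.1 in LL_WBI, and 297, 238 and 272 in LL_Ctrl. HH_Ctrl was the highest and LL_Ctrl the lowest group, with a difference of -1.03 ± 0.23 (adjusted p = 0.0246). Srm, spermidine synthase, averaged 17.4 ± 1.04 FPKM in HH_WBI, 10.7 ± 0.656 in HH_Ctrl, 18.3 ± 1.44 in LL_WBI, and 6.47 ± 0.706 in LL_Ctrl (SD, n = 3 each). It rose in both modes, by 0.69 in HH (adjusted p = 0.00267) and by 1.49 in LL (adjusted p = 0.000241). Its irradiated gap was -0.08 and its difference -0.80 ± 0.18 (adjusted p = 0.0256).

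Mt2, a metallothionein that binds zinc and is induced by glucocorticoids, was at 622, 964 and 234 FPKM in HH_WBI, 432, 273 and 619 in HH_Ctrl, 73.3, 134 and 106 in LL_WBI, and 15.1, 4.92 and 11.7 in LL_Ctrl. Both HH groups lay above both LL groups, and LL_Ctrl was the lowest, so that the irradiated gap was 2.36 (adjusted p = 0.0449), the control gap 5.44 (adjusted p = 7.93e-05) and the difference -3.08 ± 0.74 (adjusted p = 0.0329). Cry2, a repressor of the circadian clock, was at 6.56, 7.35 and 6.89 FPKM in HH_WBI, 9.93, 8.79 and 11.03 in HH_Ctrl, 2.46, 2.43 and 3.47 in LL_WBI, and 1.995, 2.19 and 2.29 in LL_Ctrl. Both HH groups were again above both LL groups, with an irradiated gap of 1.302, a control gap of 2.15 and a difference of -0.84 ± 0.23 (adjusted p = 0.0498). Of 17 clock genes 8 had a higher control gap and 6 a higher irradiated gap, against 3.77% and 1.06% over all genes. Pkdcc, a secreted kinase of skeletal growth, had a difference of -0.75 ± 0.18 (adjusted p = 0.0299). Mt2 lost its call without HH_WBI 1, HH_Ctrl 1, HH_Ctrl 3, LL_WBI 2, LL_Ctrl 2 or LL_Ctrl 3. Cry2 lost it without any HH_WBI library, any HH_Ctrl library or any LL_Ctrl library. For Pkdcc the call went without HH_WBI 1, HH_WBI 2, HH_Ctrl 2, HH_Ctrl 3 or any LL_Ctrl library. For Lgals3 it went without HH_WBI 1, HH_Ctrl 1, HH_Ctrl 3, LL_Ctrl 2 or LL_Ctrl 3, and for Srm without HH_WBI 1, HH_Ctrl 1, HH_Ctrl 2 or any LL_Ctrl library. The highest adjusted p among these was 0.123. Those of Lgals3, Srm and Pkdcc were also lost after removal of the GC and length trends, at -0.72 (adjusted p = 0.0833), -0.47 (adjusted p = 0.133) and -0.68 (adjusted p = 0.0554).

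Most genes with a lower HH response, 59 of 82, were placed in neither, and in 39 of them the control gap made up between 1/3 and 2/3 of the difference. Gal, galanin, a peptide of enteric neurons, had the largest difference of those averaging 4 FPKM or more and was at 5.32, 4.08 and 2.83 FPKM in HH_WBI, 5.57, 4.15 and 7.99 in HH_Ctrl, 6.85, 22.4 and 10.1 in LL_WBI, and 0.664, 1.81 and 1.25 in LL_Ctrl. LL_Ctrl lay below all other libraries, and the LL response of 3.22 (adjusted p = 0.00389) stood beside an HH response of -0.52 (adjusted p = 0.399). The difference was -3.74 ± 0.63 (95% interval -5.11 to -2.36, adjusted p = 0.0124), with an irradiated gap of -1.53 and a control gap of 2.21. Tppp3, a tubulin-binding protein, was at 7.87, 6.29 and 7.39 FPKM in HH_WBI, 22.3, 22.04 and 26.2 in HH_Ctrl, 13.4, 11.1 and 21.4 in LL_WBI, and 10.9, 13.3 and 13.7 in LL_Ctrl. HH_Ctrl lay above and HH_WBI below all other libraries, so that the HH response was -1.7 (adjusted p = 0.00047), the LL response 0.22 (adjusted p = 0.5304) and the difference -1.92 ± 0.30 (adjusted p = 0.01096). Ckm, muscle creatine kinase, averaged 1.199 ± 0.195 FPKM in HH_WBI, 3.78 ± 0.479 in HH_Ctrl, 3.38 ± 1.04 in LL_WBI, and 2.26 ± 0.0731 in LL_Ctrl (SD, n = 3 each). HH_WBI was the lowest group, and the difference was -2.102 ± 0.30 (adjusted p = 0.01003). The calls of Gal, Tppp3 and Ckm held without each library and after removal of the GC and length trends.

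Enteric neuron and glia genes had 3 lower and 0 higher calls of 15 tested, against 0.635% lower over all genes, with a median difference of -1.03. At an unadjusted p under 0.05 there were 7, all lower, against 582 of the 12921 genes in that direction. The called genes beside Gal were Tubb3, neuronal tubulin, at -1.65 ± 0.37 (adjusted p = 0.0254), and Calb2, calretinin, at -1.26 ± 0.28 (adjusted p = 0.0251), both not placed. Tubb3 was at 2.29, 1.55 and 1.16 FPKM in HH_WBI, 3.29, 2.71 and 4.03 in HH_Ctrl, 2.96, 3.28 and 4.92 in LL_WBI, and 2.199, 2.42 and 2.19 in LL_Ctrl, and HH_WBI and LL_WBI did not overlap. The summed level of the enteric neuron and glia list was 32.7 to 55.8 FPKM in HH_WBI, 40.2 to 59.4 FPKM in HH_Ctrl, 60.6 to 94.6 FPKM in LL_WBI and 36.01 to 41.9 FPKM in LL_Ctrl. Tubb3 and Calb2 lost the call without HH_Ctrl 1, HH_Ctrl 3 or any LL_Ctrl library, Calb2 also without HH_WBI 1 and Tubb3 also without HH_WBI 2, with adjusted p up to 0.0714. Calb2 was lost after removal of the GC and length trends, at -0.97 (adjusted p = 0.0583).

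Of 17 smooth muscle genes 1 was called lower and 0 higher, against 0.635% lower over all genes, and 15 differences were below 0 (88.2%, against 36.6%). The called gene Myl9, a light chain of smooth muscle myosin, was at 128, 67.97 and 76.5 FPKM in HH_WBI, 168, 177 and 203 in HH_Ctrl, 134, 131 and 312 in LL_WBI, and 108, 122 and 118 in LL_Ctrl. The difference was -1.67 ± 0.44 (adjusted p = 0.0449), with an irradiated gap of -1.01 and a control gap of 0.65. The call was lost without HH_WBI 2, HH_WBI 3, any HH_Ctrl library or any LL_Ctrl library (adjusted p up to 0.102) and after removal of the GC and length trends, at -1.39 (adjusted p = 0.09602). Msln, mesothelin of the outer lining and of fetal-like epithelium, was at 1.18, 0.485 and 0.405 FPKM in HH_WBI, 3.58, 3.95 and 4.76 in HH_Ctrl, 2.17, 1.85 and 6.17 in LL_WBI, and 2.496, 1.71 and 1.01 in LL_Ctrl. Its difference was -3.33 ± 0.67 (adjusted p = 0.0197) and was lost without LL_Ctrl 2 or LL_Ctrl 3 (adjusted p up to 0.0627). The summed level of the smooth muscle list was 458 to 980 FPKM in HH_WBI, 798 to 907 FPKM in HH_Ctrl, 700 to 1733 FPKM in LL_WBI and 598 to 686 FPKM in LL_Ctrl. The part of the amount of muscle and outer wall in these libraries was not tested.

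Tst, a mitochondrial sulfurtransferase, averaged 4.27 ± 0.8696 FPKM in HH_WBI, 9.32 ± 1.14 in HH_Ctrl, 6.64 ± 0.707 in LL_WBI, and 6.04 ± 0.438 in LL_Ctrl (SD, n = 3 each). HH_Ctrl was the highest and HH_WBI the lowest group, and the difference was -1.25 ± 0.24 (adjusted p = 0.0181). Klf15, a transcription factor of fasting and glucocorticoid action, was at -1.51 ± 0.31 (adjusted p = 0.0207), and Atf5, a factor of the stress response, at -1.12 ± 0.25 (adjusted p = 0.024). All 3 were not placed, with control shares of 48.9%, 33.4% and 80.1%. Tst lost its call without LL_Ctrl 2 or LL_Ctrl 3. Klf15 lost it without HH_WBI 1, HH_Ctrl 1, LL_Ctrl 2 or LL_Ctrl 3, and Atf5 without HH_WBI 1, HH_WBI 2 or any LL_Ctrl library. The highest adjusted p among these was 0.0665. Klf15 and Atf5 also lost it after removal of the GC and length trends, at -1.42 (adjusted p = 0.0639) and -0.84 (adjusted p = 0.0556).

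The genes with a lower HH response that were placed in the irradiated groups numbered 14, and 5 of them encode proteins of the cytosolic ribosome, among them Rps18, Rpl30, Rpl26 and Rps15a. Those outside the ribosome were Tnnt2, Rspo1, Cd320, Rabac1, Paip2b, Nnt, Mydgf, Kcne3 and Cdpf1. The HH_WBI libraries of Rps18 were below all other libraries, at 311, 312 and 371 FPKM in HH_WBI, 572, 686 and 703 in HH_Ctrl, 646, 514 and 604 in LL_WBI, and 649, 570.2 and 585 in LL_Ctrl. The irradiated gap was -0.83 (adjusted p = 0.0288), the control gap 0.12 (adjusted p = 0.628) and the difference -0.94 ± 0.22 (95% interval -1.43 to -0.46, adjusted p = 0.0293). Without single libraries the difference ran from -1.04 to -0.87, and the call was lost without HH_WBI 1, HH_WBI 2, HH_Ctrl 2, HH_Ctrl 3 or any LL_Ctrl library (adjusted p up to 0.0871).

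Ribosomal proteins as a whole had no higher call. Of 77 cytosolic ribosomal protein genes tested, 18 had a lower HH response, against 0.635% of all genes, and 0 had a higher one. An unadjusted p under 0.05 was found in 57, all lower, against 582 of the 12921 genes in that direction. The difference was below 0 in 77 of 77, against 36.6% of all genes. The irradiated gap was below 0 in 76, against 50.2% of all genes. That gap was also below 0 in 36 of 38 complex I genes and 38 of 40 genes of respiratory complexes II to V. It was below 0 in 35 of 37 proteasome genes and 70 of 77 mitochondrial ribosomal protein genes too. The median difference was -0.62, with a median irradiated gap of -0.50 and a median control gap of 0.13, and the HH_WBI libraries were the lowest of all in 57 of the 77. The summed level was 21790 to 24395 FPKM in HH_WBI, 34453 to 39360 FPKM in HH_Ctrl, 26667 to 34764 FPKM in LL_WBI and 31696 to 35394 FPKM in LL_Ctrl. HH_WBI and LL_WBI did not overlap in the sum, and HH_Ctrl and LL_Ctrl did.

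The sequence at the start of these genes is shown because the proteins of the ribosome share a feature there: many of their messages begin with an uninterrupted run of pyrimidines, the terminal oligopyrimidine tract, through which mTOR signalling controls their translation. The 30 bases around the annotated start (15 on each side) were searched in the RefSeq promoter windows of build GRCm38.p6 for a run of at least 5 pyrimidines that begins with C within 3 bases of the start, on the strand of the gene. A gene counted if any of its windows held such a run. The run was found in 24 of 57 ribosomal protein genes with a window (42.1%) and in 6 of the 14 with a window among the 18 with a lower HH response (42.9%). It was found in 15.2% of the 10088 genes tested that had a window and in 13.5% of all 27025 genes with a window. A match describes these letters and is no measure of translation. Rps18 lies at chr17:33955651-33955680, Rps15a at chr7:118116133-118116162, Rpl35 at chr2:39005117-39005146 and Rpl15 at chr14:18270972-18271001, all on the minus strand, with the run in capitals.
Rps18: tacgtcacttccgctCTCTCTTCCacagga
Rps15a: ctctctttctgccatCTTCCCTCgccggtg
Rpl35: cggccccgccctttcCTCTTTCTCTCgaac
Rpl15: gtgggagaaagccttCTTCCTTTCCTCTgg

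Beside Rps18 the ribosomal proteins with the smallest p-values were Rps14, Rpl10a, Rps19 and Rps4x. Rps14, of the small subunit, was at 459.7, 539.9 and 587 FPKM in HH_WBI, 1127, 1218 and 1433 in HH_Ctrl, 914, 729 and 1022 in LL_WBI, and 993, 813 and 896 in LL_Ctrl. HH_WBI lay below and HH_Ctrl above all other libraries, and the difference of -1.22 ± 0.26 (adjusted p = 0.0221), with an irradiated gap of -0.74 and a control gap of 0.48, was not placed. Rpl10a was at -1.06 ± 0.23 (adjusted p = 0.024), Rps19 at -0.87 ± 0.20 (adjusted p = 0.0262) and Rps4x at -0.91 ± 0.21 (adjusted p = 0.0286), all not placed. Rps15a, of the small subunit, and Rpl35 and Rpl15, of the large subunit, whose starts are printed above, were at -0.91 ± 0.25, -0.93 ± 0.22 and -0.83 ± 0.22 (adjusted p = 0.04804, 0.02904 and 0.0452). Their calls were lost in 9, 8 and 10 of the 12 fits without a single library. Further called members included Rps27, Rps16, Rpl30, Rpl36a, Rpl37a, Rpl13a, Rpl26 and Rpl37. Ribosomal protein genes have many processed pseudogenes, so fragments may be shared.

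The direction held more firmly than the calls. The median difference of the cytosolic ribosomal protein list stayed between -0.84 and -0.47 over all alternatives. The calls numbered 0 without HH_WBI 1, HH_Ctrl 2, HH_Ctrl 3, LL_Ctrl 2 or LL_Ctrl 3, 1 without LL_Ctrl 1, 3 without HH_WBI 2, 4 without HH_Ctrl 1, 7 without LL_WBI 1, 12 without HH_WBI 3 and 54 without LL_WBI 2. They were 50 after median-ratio scaling, 63 after removal of pancreatic genes and 32 after removal of the GC and length trends. In that last fit 38 control gaps of the cytosolic ribosomal protein list were higher, 1 called member was placed in the irradiated groups and 3 in the controls.

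Of the other genes placed in the irradiated groups, Rabac1, a receptor for prenylated Rab proteins at the Golgi, was at 18.3, 23.2 and 21.2 FPKM in HH_WBI, 29.9, 30.99 and 34.4 in HH_Ctrl, 33.4, 44.9 and 44.8 in LL_WBI, and 33.01, 31.2 and 36.01 in LL_Ctrl. HH_WBI lay below all other libraries, with an irradiated gap of -0.96 (adjusted p = 0.0136), a control gap of -0.07 and a difference of -0.89 ± 0.21 (adjusted p = 0.0291). Kcne3, a regulatory subunit of the potassium channel that drives chloride secretion in crypts, was at 26.01, 25.2 and 27.7 FPKM in HH_WBI, 31.01, 30.3 and 39.9 in HH_Ctrl, 61.1, 57.4 and 39.6 in LL_WBI, and 34.7, 34.7 and 36.4 in LL_Ctrl. HH_WBI was again the lowest group, and the difference was -0.90 ± 0.24 (adjusted p = 0.0427). Mydgf, a growth factor secreted by myeloid cells, averaged 17.9 ± 0.866 FPKM in HH_WBI, 32.4 ± 3.74 in HH_Ctrl, 30.5 ± 3.76 in LL_WBI, and 33.2 ± 0.9299 in LL_Ctrl (SD, n = 3 each). Its difference was -0.72 ± 0.18 (adjusted p = 0.0378). Rabac1 lost its call without HH_WBI 1, any HH_Ctrl library or any LL_Ctrl library. Kcne3 lost it without any HH_WBI library, any HH_Ctrl library, LL_WBI 1, LL_WBI 2 or any LL_Ctrl library, and Mydgf without HH_WBI 1, HH_WBI 2, HH_Ctrl 2, HH_Ctrl 3, LL_WBI 1 or any LL_Ctrl library. The highest adjusted p among these was 0.105. All 3 calls were lost after removal of the GC and length trends, at -0.67 (adjusted p = 0.126), -0.97 (adjusted p = 0.0648) and -0.53 (adjusted p = 0.0698).

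Tnnt2, the troponin T of heart muscle, was below the 4 FPKM asked of named genes and was chosen after its values were seen, as was Rspo1, a secreted enhancer of WNT signals that crypt stem cells receive. Tnnt2 was at 0.386, 0.344 and 0.532 FPKM in HH_WBI, 2.04, 3.77 and 3.11 in HH_Ctrl, 2.95, 5.16 and 6.91 in LL_WBI, and 2.499, 4.17 and 3.498 in LL_Ctrl. It had an irradiated gap of -3.23 and a difference of -3.03 ± 0.46 (adjusted p = 0.0106). Rspo1 was at 0.165, 0.114 and 0.169 FPKM in HH_WBI, 1.15, 0.737 and 1.16 in HH_Ctrl, 0.883, 0.847 and 2.13 in LL_WBI, and 0.768, 0.457 and 0.722 in LL_Ctrl. It had an irradiated gap of -2.36, a control gap of 0.58 and a difference of -2.94 ± 0.53 (adjusted p = 0.0161). In both the HH_WBI libraries were the lowest. The call of Tnnt2 held without each library, and that of Rspo1 was lost without LL_Ctrl 2 or LL_Ctrl 3 (adjusted p up to 0.0532).

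In 17 of 49 lists limma called no gene. Over all genes tested, 7.37% were called and 24.3% had an unadjusted p under 0.05. Mitosis genes had 0 calls of 24 and 0 with an unadjusted p under 0.05, DNA replication genes 0 of 27 and likewise 0, and crypt stem cell genes 0 of 15 and 0. Nuclear genes of respiratory complex I had 0 calls of 38 with 2 at an unadjusted p under 0.05, those of complexes II to V 0 of 40 with 2, and genes encoded by mitochondrial DNA 0 of 13 with 0. Brush border genes had 0 calls of 20 with 3 at an unadjusted p under 0.05, all higher, and fat absorption genes 0 of 17 with 2, both higher. Differences were below 0 in 28 of 38 complex I genes and 32 of 40 of complexes II to V, against 36.6% of all genes. The same held for 21 of 27 DNA replication genes. The medians of these lists were -0.15, -0.16 and -0.27, and 0.05, 0.03 and 0.09 without LL_WBI 1. Brush border differences were above 0 in 19 of 20, against 63.4% of all genes. Cdk1, the kinase that drives mitosis, was at 11.96, 14.4 and 12.9 FPKM in HH_WBI, 26.5, 31.4 and 29.1 in HH_Ctrl, 41.9, 13.5 and 13.4 in LL_WBI, and 28.8, 24.8 and 22.3 in LL_Ctrl. LL_WBI 1 stood apart from the other irradiated libraries, and the difference of -0.79 ± 0.49 had a 95% interval of -1.85 to 0.27 (adjusted p = 0.359). Sis, the brush border enzyme sucrase-isomaltase, had a difference of 1.38 ± 0.53 (95% interval 0.22 to 2.54, adjusted p = 0.132). A list without a call is not shown to respond alike to both modes, and the intervals of Cdk1 and Sis reach past 1 log2 unit.

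At the threshold itself, Sav1 (0.79, adjusted p = 0.0499) and Rala (0.90, adjusted p = 0.04996) were the last genes inside, and Rps27a (-0.84, adjusted p = 0.0501) and Ndfip2 (0.71, adjusted p = 0.0503) the first outside.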

How the data were processed

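RNA of intestine from 12 libraries was sequenced. The labels name a TruSeq kit and ribosomal RNA depletion, and the study's methods name oligo(dT) enrichment, so the preparation is not settled here. The FPKM values were deposited by the authors, who computed them with StringTie; the processing notes of the submitters list 3 builds (GRCm39, mm39 and mm8) and the aligner Bowtie 0.12.2 without giving their roles. Read counts were not used here, so depth was estimated. Columns that belong to none of these samples numbered 0. Groups came from the labels.

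Genes averaging 0.5 FPKM or more (12921 of 22063; 3768 were 0 throughout) were fitted on log2(FPKM + 0.1) with limma 3.58.1 (trend) in R 4.3.3, with all 4 groups in the model. P-values are two-sided and Benjamini-Hochberg adjusted over all genes tested. Alternatives covered pseudocount, filter, scaling, weights, GC content, a replicate block and leaving out libraries. The fit was tested on simulated data. Of 100 genes lowered by 1.5 log2 units in HH_Ctrl, 47 were called and 33 placed right. Of 100 raised in HH_WBI, 57 were called and 53 placed right. In each simulation 0 were placed wrong, with 4 false calls over the 12921 genes. Each changed 100 genes of 1 group, whereas the control gap passed the threshold in 3156 genes of the data. The simulations therefore do not give the rate of wrong placement in these data.

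The members, gene lists and tests were chosen with earlier results of these data known. Named genes were called, averaged 4 FPKM or more and lay outside the pancreas list: the 8 of smallest p in each direction, 4 in each direction and place, up to 4 called members of each list (otherwise its 2 of smallest p), and 6 p53 targets (Cdkn1a, Mdm2, Phlda3, Psrc1, Gdf15 and Eda2r); list members could be lower. Predicted genes were skipped. Of 50 lists, 1 (short RNA without a poly(A) tail) had no gene in the table, and 49 were tested. Symbols were those deposited; 30 rows had none, and 20 symbols were carried by more than 1 ID. Values of some genes are not reported here.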

Additional observations from a re-analysis of the deposited data

Results flagged for a closer look

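The response differed between modes by the test of the difference itself in 870 genes that were higher in HH mode and in 82 that were lower. In each class the gene of smallest p that averaged 4 FPKM or more stands for it here. Alg6, higher and placed in the controls, had a difference of 1.82 (limma, adjusted p = 0.01003), with an HH response of 1.58 and an LL response of -0.24. Igkv4-74, higher and placed in the irradiated groups, had 4.51 (adjusted p = 0.0206), with responses of 2.59 and -1.91. Plek2, lower and placed in the controls, had -1.12 (adjusted p = 0.0164), with responses of -0.39 and 0.72. Rabac1, lower and placed in the irradiated groups, had -0.89 (adjusted p = 0.0291), with responses of -0.60 and 0.28.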

How the results depend on the processing

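Counts of genes with a higher and a lower HH response were 870 and 82, with 613 higher genes placed in the controls and 3 in the irradiated groups, and 9 lower genes placed in the controls and 14 in the irradiated groups. The difference changed sign in 0 of the 79 named genes under any alternative, but the median difference did so in 25 of 49 lists, 6 of them with a median over 0.5 in size. Over all settings of the named genes, 2640 values kept their side of the threshold, 536 lost it and 40 gained it. Pseudocount 1 gave 9 lower genes placed in the irradiated groups, and no filter gave 53 lower, 6 of them there. Median-ratio scaling gave 348 lower genes, and placed 12 higher and 29 lower genes in the irradiated groups and 39 lower genes in the controls. Quantile normalisation gave 449 lower, with 19, 75 and 57 in the same order. Removal of pancreatic genes gave 467 lower, with 180 in the irradiated groups and 17 in the controls. Array weights gave 25 lower genes in the irradiated groups. Asking for a difference above 1 gave 579 higher and 42 lower, 4 in each place. Removal of GC and length trends gave 198 and 182, with 125 higher and 37 lower genes in the controls. Without LL_WBI 1 and LL_WBI 2 there were 567 and 294, with 388 higher genes in the controls, 16 in the irradiated groups, and 33 and 100 lower genes. Without HH_WBI 3 and LL_WBI 3 there were 2136 and 174, with 846, 134, 16 and 71 in the same order. Chosen after seeing the data, removal of the GC trend alone gave 157 and 165, with 96, 6, 24 and 9 in that order, and weights per group gave 57 lower, 4 in the controls. Leaving out single libraries gave 65 to 1842 higher and 4 to 341 lower genes, with 57 to 858 and 0 to 102 higher genes, and 0 to 19 and 1 to 137 lower genes, in the controls and the irradiated groups. The replicate block gave 766 higher and 49 lower, with 7 higher genes in the irradiated groups and 5 and 7 lower genes in the controls and the irradiated groups. Same-numbered libraries correlated at -0.18 to 0.29 in their deviations, over 0.1 in 4 of 18 pairs. Differently numbered libraries of separate groups spanned -0.32 to 0.29, so these values cannot tell whether the numbers pair the samples. Depth was estimated, and precision was set by 3 libraries a group.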

Other observations

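Nnt, the mitochondrial transhydrogenase, was chosen after its values were seen and stands in the table under 2 IDs. ENSMUSG00000116207 was at 0, 1.13 and 0 FPKM in HH_WBI, 4.24, 3.20 and 3.23 in HH_Ctrl, 4.91, 2.44 and 5.40 in LL_WBI, and 4.61, 2.82 and 1.79 in LL_Ctrl, with 2 HH_WBI libraries listed at 0. Its difference was -4.45 (limma, adjusted p = 0.0367), placed in the irradiated groups, and -2.19 (adjusted p = 0.0292) with a pseudocount of 1. The call was lost in 9 of the 12 fits without a single library (adjusted p up to 0.0984), with no filter on low values (0.058) and after removal of the GC and length trends, at -4.73 (adjusted p = 0.0503). ENSMUSG00000025453 was at 10.1, 6.12 and 6.36 FPKM in HH_WBI, 3.47, 4.63 and 5.14 in HH_Ctrl, 5.71, 4.29 and 4.01 in LL_WBI, and 3.80, 7.01 and 5.91 in LL_Ctrl, with a difference of 0.96 (adjusted p = 0.139). Fragments may have been split between the 2 IDs, so the call of Nnt is uncertain.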
